A study of Oryza sativa Indica Group with 4 samples.

Results

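A set of 67 rice loci had fewer transcript reads at 30 than at 25 °C in wild-type leaf blades and more reads at 30 than at 25 °C in leaf blades of the mutant togr1-1. The loci were chosen by these values. Reads of all transcript models of a locus were summed, 1 read was added, and the sums were scaled by the total reads of each library. A locus was kept when each genotype's pair of libraries held at least 50 reads, when the ratio of 30 over 25 °C was at most 0.5 in the wild type and when it was at least 2 in togr1-1. Of 28458 loci with a read, 15379 passed the filter on reads and 67 of these (0.436%) met both ratios. The temperature responses of the 67 loci are therefore the way they were picked and are given as a description. Below, lower and higher mean a difference between single libraries, with no replicate check.

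RNA from the fourth leaf blades of 22-day-old seedlings was sequenced in 4 libraries. The plants were the wild-type indica variety Zhongxian 3037 and togr1-1 (labelled tog1), a spontaneous recessive mutant found in that variety, which carries a single amino acid substitution in TOGR1. Seedlings 4 days old of each genotype were grown for a further 18 days at 25 or 30 °C, under 12 h of light and 80% humidity. For each condition 100 mg of pooled blades gave 1 library, so the conditions have no replicates. The counted reads ranged from 11959859 to 12371522 per library, and no spread between plants can be measured. In such bulk tissue, fewer cells of a type and less RNA per cell cannot be told apart.

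Plants adjust many transcripts to ambient temperature, and rice, a crop of warm climates, grows faster as temperature rises within its tolerated range. TOGR1 is a nucleolar DEAD-box RNA helicase, one of the ATP-dependent proteins that remodel RNA duplexes, and Rrp3, the yeast protein that it resembles, acts in the processing of ribosomal RNA precursors. A transcript that responds to warming in opposite directions in the wild type and in a mutant has a genotype difference that depends on the temperature at which it is measured. The files identify transcripts only by locus identifiers, and 0 of 28458 identifiers were found in RefSeq's genes for assembly ASM3414082v1. The functions of the 67 loci, and the leaf marker genes with which the tissue label could be checked, were therefore not analysed here.

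Among all loci past the filter, 1000 (6.50%) had a ratio of at most 0.5 in the wild type and 1106 (7.19%) had a ratio of at least 2 in togr1-1. Of the 1000 loci lower at 30 °C in the wild type, 67 (6.7%) were at least 2-fold higher in togr1-1, 250 (25.0%) were at least 2-fold lower in togr1-1 as well, and 683 (68.3%) stayed within 2-fold. Of the 1106 loci higher at 30 °C in togr1-1, 422 (38.2%) were also at least 2-fold higher in the wild type and 617 (55.8%) stayed within 2-fold. The 67 loci were thus the smallest of the 3 outcomes on either side. Their 6.7% of the 1000 was near the 7.19% of all loci past the filter that were higher in togr1-1. Likewise their 6.06% of the 1106 was near the 6.50% of all loci that were lower in the wild type. The size of the set is therefore not read as a result. For the 67 loci the log2 ratio of 30 over 25 °C had a median of -1.58 in the wild type (-5.78 to -1.03) and of 1.56 in togr1-1 (1.04 to 4.29). The end at -5.78 is LOC_Os02g36280, whose wild-type library at 30 °C held 0 reads, so that this value is set by the added read. Over all 15379 loci the medians were 0.10 and 0.06.

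**Figure D1:**
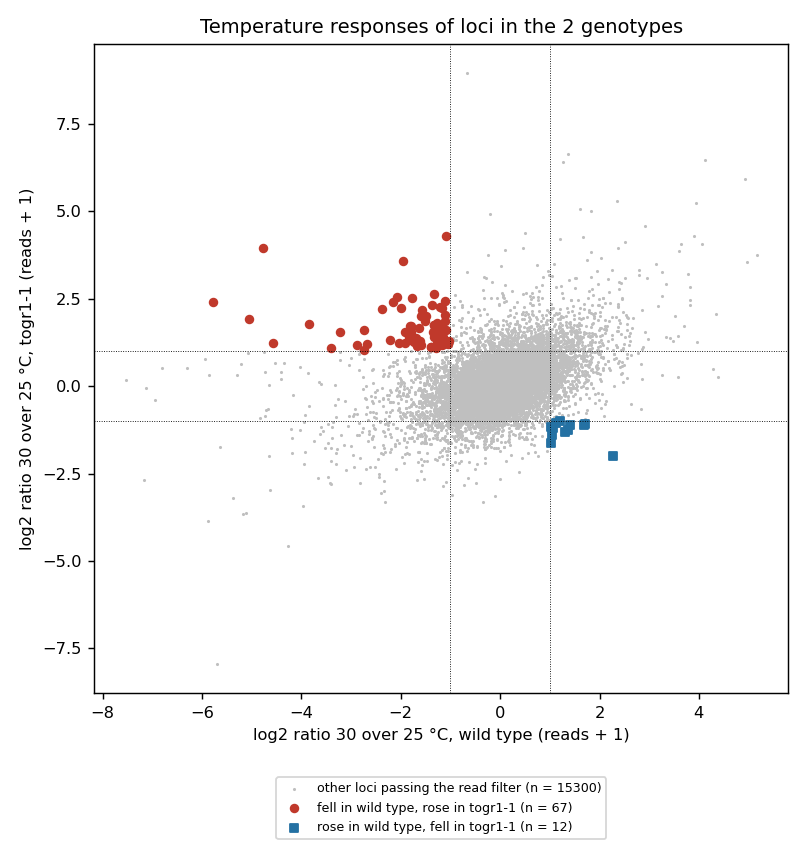
Log2 ratio of 30 over 25 °C (reads plus 1, scaled by library totals) in the wild type (x axis) and in togr1-1 (y axis) for each locus past the filter on reads, with dotted lines at 2-fold. The 67 loci (red) lie in the upper left corner by choice, and 12 loci with the reverse responses (blue) lie in the lower right.

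The reverse pattern, at least 2-fold higher at 30 °C in the wild type and at least 2-fold lower in togr1-1, was met by 12 loci (0.0780% of 15379). Taken alone, the former condition was met by 6.98% of all loci past the filter and the latter by 4.23%. Loci with opposite responses at 2-fold or more numbered 79 in all, and 84.8% of them were lower in the wild type and higher in togr1-1. Without a limit on the size of the change the order turned. Of the 15379 loci, 2383 (15.5%) were lower by any amount in the wild type and higher in togr1-1, whereas 2759 (17.9%) were the reverse. Of the 12 reverse loci, LOC_Os04g52700 differed most, with 14 reads in the wild type at 25 °C, 70 at 30 °C, 44 in togr1-1 at 25 °C and 10 at 30 °C. LOC_Os04g34984 followed with 14, 46, 59 and 26 reads in the same order, and LOC_Os03g20500 with 59, 190, 127 and 58. These reverse loci were read less deeply, with a median of 191 reads over the 4 libraries against 461 for the 67 loci and 919 for all loci past the filter.

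Reads are given below in the order wild type at 25 °C, wild type at 30 °C, togr1-1 at 25 °C and togr1-1 at 30 °C. Log2 ratios of named loci, unless marked as reads plus 1, are of reads without the added read, scaled by totals. They are given with 95% Clopper-Pearson intervals that cover counting error only. These intervals are too narrow where both mates of a read pair were counted. Of the models with 1 to 20 reads in a library, from 61.3% to 63.0% had an even number of reads, and models with 2 reads outnumbered those with 1 read in each library (2333 to 2740 against 1399 to 1597). Because the loci were picked by these same ratios, the intervals describe the counting precision of each value and do not support the choice of the loci. With reads halved, the interval reached no change in at least 1 genotype for LOC_Os02g36840, LOC_Os07g48170 and LOC_Os09g23660.

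The largest differences between the responses, among loci with at least 200 reads over the 4 libraries, were found in loci that were nearly silent in a single library or in a pair of libraries. LOC_Os03g32230 had 250, 8, 6 and 105 reads. Its log2 ratio of 30 over 25 °C was -4.94 (-6.16 to -3.93) in the wild type and 4.16 (2.99 to 5.64) in togr1-1, so this locus was read almost entirely in the wild type at 25 °C and in togr1-1 at 30 °C. LOC_Os02g41670 had 169, 4, 10 and 40 reads, with ratios of -5.37 (-7.26 to -3.99) and 2.03 (1.002 to 3.19). Its togr1-1 reads at 30 °C stayed well below the wild-type reads at 25 °C. LOC_Os06g37300 had 169, 6, 28 and 66 reads, with ratios of -4.79 (-6.25 to -3.63) and 1.26 (0.61 to 1.96). In each of these loci the wild type at 25 °C was the highest library. LOC_Os02g36280, with fewer reads, had 55, 0, 10 and 56. With 3 reads in place of the 0, it was at least 17.9-fold lower at 30 than at 25 °C in the wild type, and at 30 °C it was at least 18.4-fold higher in togr1-1 than in the wild type.

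In other loci with large differences, togr1-1 at 30 °C stood out instead. LOC_Os01g09220 had 561, 141, 253 and 2977 reads, a log2 ratio of -1.96 (-2.24 to -1.69) in the wild type and of 3.58 (3.40 to 3.77) in togr1-1. LOC_Os01g50420 had 164, 75, 18 and 363 reads, and its ratios were -1.10 (-1.51 to -0.70) and 4.36 (3.68 to 5.13), the largest of the 67 in togr1-1. LOC_Os01g31370 had 125, 35, 52 and 297 reads. For these loci the change in togr1-1 exceeded that in the wild type, and togr1-1 at 30 °C held more reads than any other library.

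Still other loci had similar maxima in both genotypes at opposite temperatures. LOC_Os03g14654 had 1111, 75, 372 and 1264 reads, with a log2 ratio of -3.86 (-4.22 to -3.52) in the wild type and 1.79 (1.62 to 1.96) in togr1-1. LOC_Os02g52010 had 827, 86, 330 and 956 reads, with ratios of -3.23 (-3.57 to -2.91) and 1.56 (1.38 to 1.75). Both are loci with many reads in which the wild type at 30 °C was the lowest library by a wide margin. LOC_Os09g27260 (161, 14, 58 and 121 reads), LOC_Os06g09310 (122, 17, 68 and 206), LOC_Os06g03810 (84, 15, 25 and 117) and LOC_Os02g45780 (105, 25, 33 and 156) completed the 12 with the largest difference and showed the same order of low libraries, the wild type at 30 °C below togr1-1 at 25 °C. LOC_Os09g27260 was near the threshold in togr1-1. With TMM factors (scaling factors in place of library totals) its log2 ratio of 0.9985 (reads plus 1) left it outside the set.

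**Figure D2:**
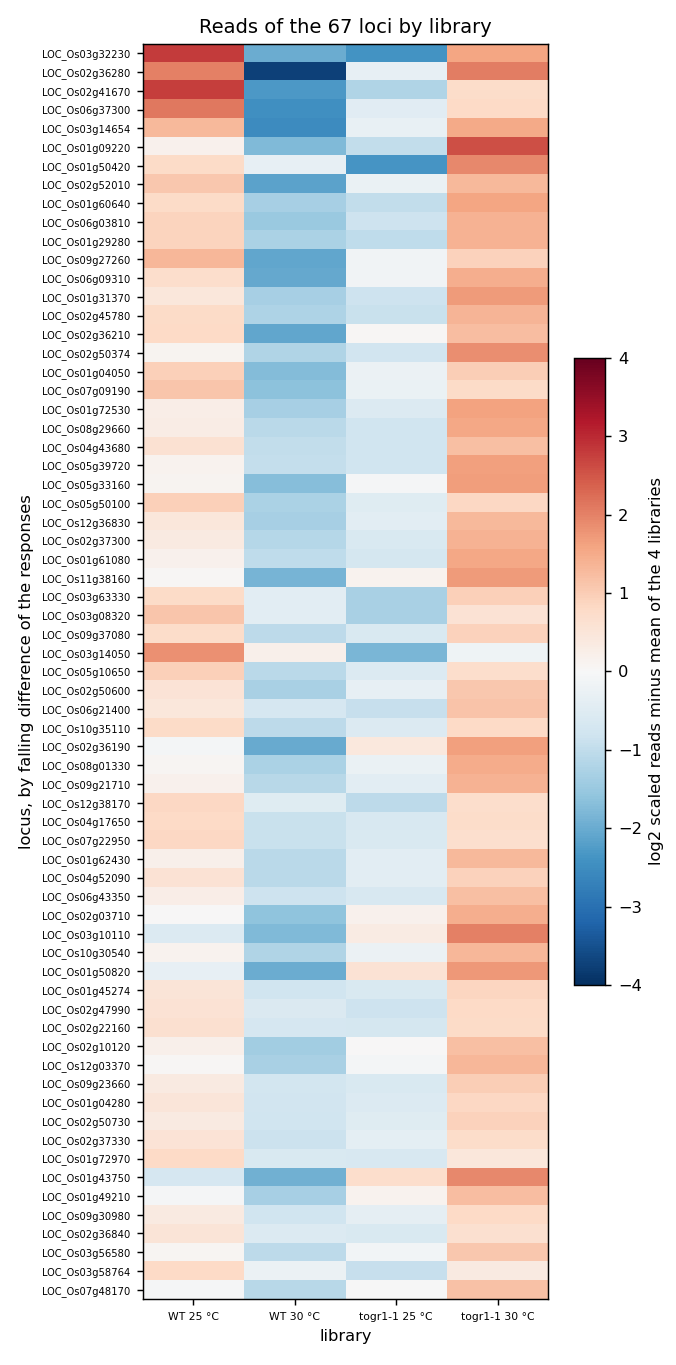
Log2 of scaled reads (reads plus 1, over library totals) of each of the 67 loci in the 4 libraries, minus the mean of the locus over the libraries, sorted by the difference of the responses (colour bar, log2 units). The column of togr1-1 at 30 °C is the highest in 53 rows, and that of the wild type at 30 °C is the lowest in 55 rows.

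The loci with the most reads give the ratios with the least counting error. LOC_Os02g10120 had 2917, 952, 2590 and 5794 reads, the most of the set, with a log2 ratio of -1.58 (-1.69 to -1.48) in the wild type and 1.19 (1.12 to 1.26) in togr1-1. At 25 °C the genotypes were close for this locus, with a log2 ratio of togr1-1 over wild type of -0.19 (-0.27 to -0.11), and at 30 °C they were apart, at 2.58 (2.48 to 2.68). LOC_Os04g52090 had 1342, 410, 676 and 1666 reads. There the log2 ratio of togr1-1 over wild type was -1.01 (-1.14 to -0.87) at 25 °C, and its interval at 30 °C ran from 1.84 to 2.16, so the order of the genotypes was exchanged.

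LOC_Os01g61080 had 848, 358, 464 and 2190 reads, and LOC_Os08g29660 had 768, 291, 366 and 1804. LOC_Os02g37300 had 768, 268, 403 and 1582 reads. These were alike in shape, with log2 ratios in the wild type of -1.21 (-1.40 to -1.03), -1.37 (-1.57 to -1.17) and -1.49 (-1.69 to -1.29), and in togr1-1 of 2.27 (2.12 to 2.41) and 2.33 (2.17 to 2.49) for the former loci, with an interval from 1.84 to 2.16 for LOC_Os02g37300. LOC_Os05g50100 differed from them, with 1266, 266, 470 and 1151 reads, a larger fall in the wild type of -2.22 (-2.42 to -2.03) and a smaller rise in togr1-1 of 1.32 (1.16 to 1.48). LOC_Os01g45274 had 947, 375, 439 and 1200 reads. LOC_Os03g10110, with 329, 138, 609 and 1947 reads, was the locus among the 10 with the most reads that was already higher in togr1-1 at 25 °C, by 0.87 (0.67 to 1.07).

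The genotypes were then set side by side at each temperature. These ratios come from the same 4 libraries as the rule. The rule fixes that the log2 ratio of togr1-1 over wild type is at least 2 higher at 30 than at 25 °C. Each of the 67 loci thus had to be at least 2-fold higher in togr1-1 at 30 °C, at least 2-fold lower at 25 °C, or both. Only the temperature at which the difference lay was not fixed, and its direction was. The shares of all loci given beside the counts are of loci not picked in this way. The contrast with them is therefore shaped by the choice of the loci and is not read as a result. At 30 °C, 65 of the 67 loci were at least 2-fold higher in togr1-1, against 4.91% of all loci past the filter, and 0 were at least 2-fold lower, against 3.08%. At 25 °C, 37 were at least 2-fold lower in togr1-1, against 4.51%, and 1 was at least 2-fold higher, against 1.91%. The median log2 ratio over the set was 2.54 at 30 °C and -1.12 at 25 °C, against -0.11 and -0.04 over all loci.

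Both differences were at least 2-fold in 35 loci, whose genotype order was thus exchanged between the temperatures. Another 29 loci were within 2-fold at 25 °C and at least 2-fold higher in togr1-1 at 30 °C, as LOC_Os02g10120 was. The opposite case, named after the values were seen, was met by 2 loci, at least 2-fold lower in togr1-1 at 25 °C and within 2-fold at 30 °C. LOC_Os03g14050 had 289, 90, 22 and 70 reads, and was the single locus of the set with fewer reads in togr1-1 than in the wild type at both temperatures. LOC_Os03g58764 had 114, 54, 34 and 83 reads. The remaining locus, LOC_Os01g43750, had 53, 21, 140 and 321 reads and was at least 2-fold higher in togr1-1 at both temperatures.

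At 25 °C the interval of the genotype ratio lay below no change in 53 loci, above it in 4 and across it in 10. At 30 °C it lay above no change in 66 loci and across it in 1. By any amount, 8 loci were higher in togr1-1 at 25 °C. Besides LOC_Os01g43750 and LOC_Os03g10110 they included LOC_Os01g50820 (51, 15, 98 and 215 reads) and LOC_Os02g36190 (76, 19, 111 and 255 reads). In these loci the wild type at 25 °C, although high beside the wild type at 30 °C, was below both togr1-1 libraries.

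**Figure D3:**
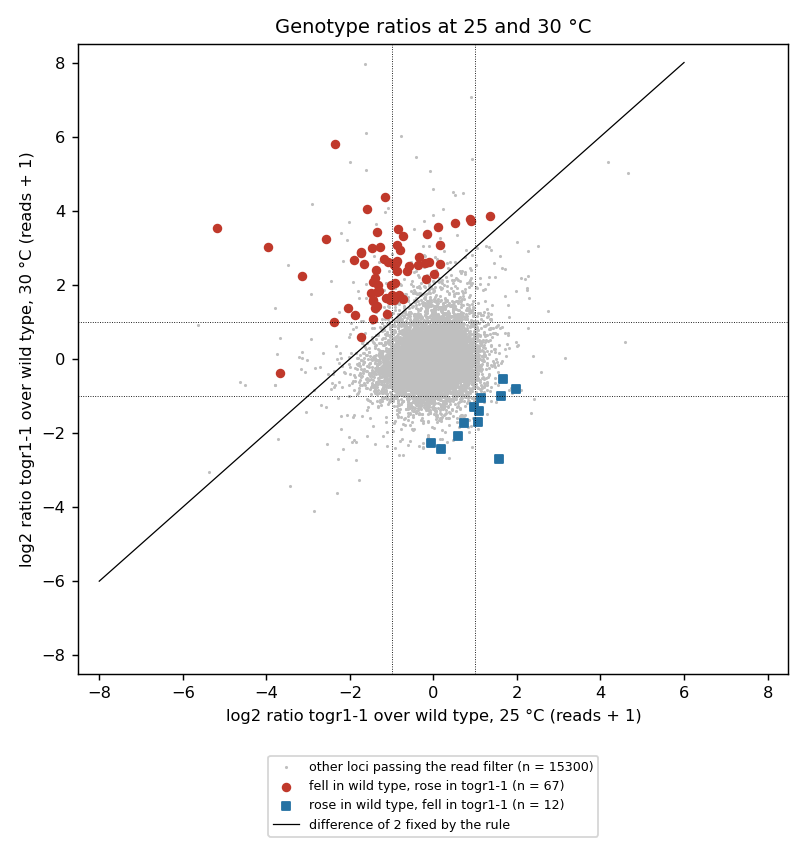
Log2 ratio of togr1-1 over wild type at 25 °C (x axis) and at 30 °C (y axis) for each locus past the filter on reads, with dotted lines at 2-fold and a solid line at the difference of 2 that the rule fixes. Of the 67 loci (red), 65 lie above the upper dotted line and 37 lie left of the left dotted line. The 12 reverse loci (blue) run from -0.06 to 1.98 at 25 °C and from -2.71 to -0.55 at 30 °C, so not all are past the dotted lines.

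Comparisons across the diagonal of the design were not fixed by the rule, but they use the same 4 libraries that picked the loci. The shares of all loci beside them are of loci not picked in this way. In 53 of the 67 loci togr1-1 at 30 °C was above the wild type at 25 °C, against 52.0% of all loci past the filter, and the median log2 ratio between these high libraries was 0.58. In 55 loci togr1-1 at 25 °C was above the wild type at 30 °C, against 40.9% of all loci, and the median between these low libraries was 0.54. The mean of the genotype log2 ratios at 25 and 30 °C, which the rule also leaves free, was above 0 in 57 loci, against 41.8% of all loci, with a median of 0.57 against -0.06. Among the 12 reverse loci it was above 0 in 4. This mean equals the mean of the diagonal log2 ratios, so it restates them and is not a separate result. As a description from the same libraries as the rule, most of the 67 loci had more scaled reads in togr1-1 when both temperatures were averaged. Since the rule lets only these low libraries be the lowest and only these high libraries be the highest, the same counts give the wild type at 30 °C as the lowest library in 55 loci and togr1-1 at 30 °C as the highest in 53. Both held in 47 loci.

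The rule sets the same 2-fold floor on the fall in the wild type and the rise in togr1-1, so their sizes are given as a description. The rise in togr1-1 exceeded the fall in the wild type on the log2 scale in 35 loci and was smaller in 32. A fall of at least 4-fold in the wild type was seen in 16 loci and a rise of at least 4-fold in togr1-1 in 17. Only 5 loci reached 4-fold in both, namely LOC_Os03g32230, LOC_Os01g60640 (42, 9, 12 and 74 reads), LOC_Os06g03810, LOC_Os01g29280 (54, 11, 14 and 77 reads) and LOC_Os02g36280, the last with a library at 0.

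Summed over the 67 loci, the reads were 21780 in the wild type at 25 °C, or 0.178% of the library, and 6324 at 30 °C, or 0.0529%. In togr1-1 they were 11722 at 25 °C (0.0947%) and 36961 at 30 °C (0.304%). Without LOC_Os02g10120, the locus with the most reads, the sums were 18863, 5372, 9132 and 31167, in the same order of libraries.

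Levels were compared between loci as RPKM, the authors' reads scaled by transcript length and library total, summed over the models of a locus. The mean RPKM over the 4 libraries ran from 0.904 to 77.9 with a median of 5.65, against 11.0 for all loci past the filter. In togr1-1 at 30 °C the median level of 11.1 RPKM was close to that of all loci in the same library (10.8), and in the wild type at 30 °C it was 2.36 against 11.3. The level was 6.75 against 10.6 in the wild type at 25 °C and 3.66 against 10.2 in togr1-1 at 25 °C. The rule fixes which library of each genotype is the lower, so these medians by library are shaped by the choice of the loci. How near they lie to the medians of all loci is therefore given as a description and not read as a result. The highest single level was that of LOC_Os02g37300, at 78.0 RPKM in the wild type at 25 °C, 27.8 at 30 °C, 40.4 in togr1-1 at 25 °C and 162 at 30 °C. In togr1-1 at 30 °C, LOC_Os02g10120 reached 148 RPKM, LOC_Os01g09220 reached 134 RPKM and LOC_Os06g21400, a short transcript of 198 bases, reached 132 RPKM. The longest model of a locus had a median length of 1714 bases, from 198 to 3415, against 1832 for all loci past the filter.

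Locus identifiers carry the chromosome number and rise along it. Chromosome 2 held 16 of the 67 loci (23.9%) and chromosome 1 held 15 (22.4%), against 12.2% and 14.7% of all loci past the filter. Together these 2 chromosomes, the ones with the most loci of the set, held 31 loci (46.3%, against 26.9%). This sum was not planned, and chromosome 2 includes the neighbouring loci described below. Chromosome 3 held 8 loci, and the others held from 1, on chromosome 11, to 5, on chromosomes 6 and 9.

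**Figure D4:**
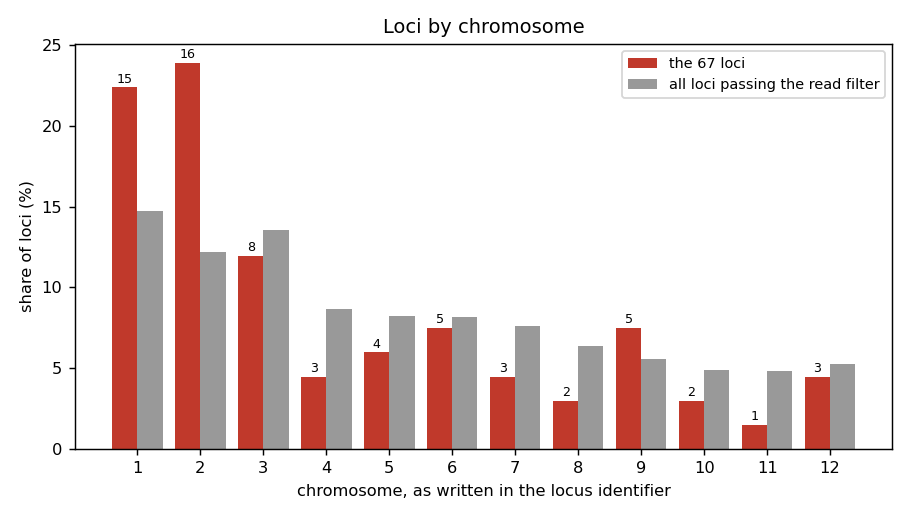
Share of the 67 loci (red bars, with their number above) and of all loci past the filter on reads (grey bars) on each of the 12 chromosomes, in percent of each set. Chromosome 2 holds 23.9% of the set against 12.2% of all loci, and chromosome 1 holds 22.4% against 14.7%.

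Neighbours by identifier were found in 2 pairs, both on chromosome 2, at most 50 identifier steps apart. LOC_Os02g36190 and LOC_Os02g36210 lie 20 steps apart. LOC_Os02g36210 had 737, 97, 448 and 991 reads, with a log2 ratio of -2.89 (-3.22 to -2.59) in the wild type and 1.17 (1.01 to 1.34) in togr1-1, and was 3.33 (3.03 to 3.65) higher in togr1-1 at 30 °C. LOC_Os02g37300 and LOC_Os02g37330 lie 30 steps apart, and LOC_Os02g37330 had 336, 124, 176 and 379 reads. LOC_Os02g37290, next to this pair and not of the set, had 143, 77, 130 and 232 reads, a change of the same signs that stayed within 2-fold.

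The first pair and LOC_Os02g36280 fall in a run of identifiers, chosen for description after its values were seen. From LOC_Os02g36070 to LOC_Os02g36400, 12 loci passed the filter and 3 were of the set. Of the 12, 10 were lower at 30 °C in the wild type and 9 were also higher in togr1-1. LOC_Os02g36070 had 62, 0, 20 and 34 reads and missed the set by its togr1-1 ratio. LOC_Os02g36264 had 118, 40, 92 and 95 reads, LOC_Os02g36150 had 509, 307, 354 and 508, and LOC_Os02g36140 had 83, 69, 64 and 93. The run was not uniform, since LOC_Os02g36340 had 64, 199, 64 and 144 reads and was higher at 30 °C in both genotypes. Over the whole genome, 129 distinct loci outside the set flanked a member as the next locus past the filter, and 33 of them (25.6%) were lower in the wild type and higher in togr1-1 by any amount. Among all 15312 loci outside the set that passed the filter the share was 15.1%. The reverse signs were found in 20 flanking loci (15.5%), against 18.0%. The flanking loci include some of the run above, such as LOC_Os02g36150 and LOC_Os02g36264, so their share partly restates it. The comparison of flanking loci was not planned. How reads of overlapping or near-identical neighbours were assigned is not given in the sources used here, so the values of neighbouring loci may not be independent.

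A locus sum can hide models that differ. Of the 67 loci, 60 had reads on 1 model, a share of 89.6% against 77.6% of all loci past the filter, and 7 had reads on more. These shares are not matched for depth, since the median was 461 reads over the 4 libraries for the set against 919 for all loci. In 4 loci at least 2 models had 20 or more reads over the 4 libraries, and in 3 of these all such models were lower at 30 °C in the wild type and higher in togr1-1. For LOC_Os03g14050 the models had 181, 67, 12 and 46 reads and 108, 23, 10 and 24 reads. The exception was LOC_Os10g35110, whose first model had 22, 5, 10 and 4 reads and whose other model had 31, 9, 11 and 49. There the rise in togr1-1 was on a single model of the locus.

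Just inside the thresholds lay LOC_Os03g58764, with a log2 ratio in the wild type of -1.03 (reads plus 1), LOC_Os07g09190 (341, 49, 133 and 269 reads), with 1.04 in togr1-1, and LOC_Os07g48170 (35, 16, 36 and 83 reads), with -1.05 in the wild type. Just outside, by the ratio in togr1-1 (reads plus 1), lay LOC_Os01g53920 at 0.998 (106, 49, 100 and 197 reads), LOC_Os01g74370 at 0.997 (187, 25, 95 and 187 reads) and LOC_Os05g43040 at 0.996 (63, 17, 46 and 91 reads). LOC_Os01g74370, outside the set by this margin, was lower at 30 °C in the wild type by a log2 ratio of -2.82 (reads plus 1). Loci on either side of the border thus had similar values, and 30 of the 67 loci had both counting intervals wholly past 2-fold, or 19 with reads halved. LOC_Os07g09190 left the set with TMM factors and with DESeq2 size factors, and LOC_Os03g58764 and LOC_Os07g48170 left it with 5 added reads.

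None of the 4 loci that the study names by identifier is of the set. TOGR1 itself (LOC_Os03g46610) had 175, 180, 127 and 156 reads. LOC_Os07g49400, named as a homologue of ascorbate peroxidase 2, which removes hydrogen peroxide, had 255, 199, 336 and 164 reads. It was lower at 30 °C in both genotypes, with log2 ratios of -0.33 (-0.60 to -0.05) and -1.01 (-1.29 to -0.73). The homologues of galactinol synthase 2, an enzyme of the synthesis of the osmoprotectant raffinose, had 380, 152, 615 and 279 reads (LOC_Os03g20120) and 101, 174, 110 and 95 reads (LOC_Os07g48830). LOC_Os07g48830 had the reverse signs, 0.82 (0.45 to 1.18) in the wild type and -0.18 (-0.60 to 0.23) in togr1-1, where the interval spans no change. The study itself measured these homologues by qRT-PCR after a short heat stress well above 30 °C, and reported increased levels of each in togr1-1. The values here come from another assay, temperature and length of treatment, so they are not a check of that experiment.

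**Figure D5:**
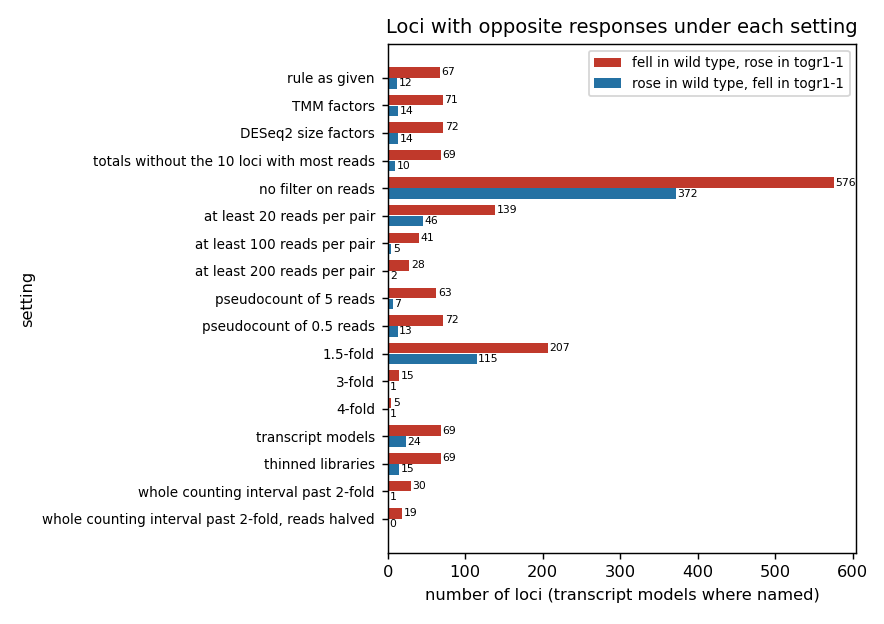
Number of loci lower at 30 °C in the wild type and higher in togr1-1 (red bars) and of loci with the reverse responses (blue bars) under the rule as given and under each other setting, with transcript models counted in the setting of that name. The red bar is the longer in every setting, at 67 against 12 under the rule and 576 against 372 with no filter on reads.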

How the data were processed

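The deposited values are raw read counts of transcript models in the 4 libraries (WT and togr1-1, each at 25 and 30 °C), not normalized by the authors. The authors' deposited RPKM divide the counts by transcript length and library total. The aligner, build and annotation release are not given in the sources used here. The deposited fold change, p-value and FDR columns, the authors' own comparison of temperatures, were not used. Models listed for one genotype alone were given 0 reads in the other.

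Counts were summed by locus, with 1 read added, and scaled by library totals. With 1 library per condition no test was made and no p-value was calculated. Ratios carry 95% Clopper-Pearson intervals for counting error, and a count of 0 was read as up to 3 counts. The members, lists and tests were chosen with earlier results of these data known. The loci named are the 12 with the largest difference of the log2 ratios among those with at least 200 reads, the 10 with the most reads, 3 on either side of the thresholds, neighbours within 50 identifier steps, loci whose models disagree, the loci the paper names, 3 reverse loci, and others named after their values were seen. Lists by gene description and cell type markers were not analysed here, as 0 of 28458 identifiers matched the RefSeq table used. Alternatives were TMM factors, DESeq2 size factors, totals without the 10 loci with the most reads, other filters, added reads and folds, transcript models, thinned libraries and counting intervals. Versions were edgeR 4.0.16 and DESeq2 1.42.0 under R 4.3.3, and numpy 2.4.6, pandas 2.3.3, scipy 1.17.1 and matplotlib 3.10.9 under Python 3.11.15.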

Additional observations from a re-analysis of the deposited data

Results flagged for a closer look

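The 67 loci that were lower at 30 °C in the wild type and higher in togr1-1, and the 12 loci with the reverse responses, are differences between the genotypes under the same change of temperature. They were picked for it, with 1 library per condition, and the difference was not tested across plants.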

How the results depend on the processing

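The number of loci in the set was within 1.5 times of 67 with TMM factors (71, of which 65 shared, without LOC_Os09g27260 and LOC_Os07g09190), DESeq2 size factors (72, of which 66 shared, without LOC_Os07g09190), totals without the 10 loci with the most reads, other added reads, transcript models and thinned libraries. It moved with the filter on reads, to 576 with none, 139 with at least 20 reads per pair, 41 with 100 and 28 with 200. It was 207 at 1.5-fold, 15 at 3-fold and 5 at 4-fold. With whole counting intervals past 2-fold it was 30, and 19 with reads halved. The reverse loci, 12 under the rule, numbered 372, 46, 5 and 2 with the same filters, 115, 1 and 1 at the same folds, and 1 and 0 with the intervals. They were 7 with 5 added reads and 24 as transcript models, and with TMM factors 14, of which 8 were among the 12. The setting with reads halved and the counts across the diagonal of the design were added after the data were seen. The comparison of flanking loci and the sum over chromosomes 1 and 2 were not among the planned comparisons. The medians and counts over the 67 loci at each temperature kept their direction under TMM factors, DESeq2 size factors and 5 added reads. TMM factors moved the median log2 ratio of all loci in the wild type from 0.10 to 0.01. No paired analysis was possible because each condition had 1 library, and for the same reason no library could be left out. Loci under 50 reads per pair, 13079 of 28458, were too shallow for the rule.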
